A study of Mus musculus with 2 samples.

Results

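Oxidative phosphorylation genes were compared between bone marrow derived macrophages labelled beta-catenin deficient and control macrophages. The genes are those of the nuclear-encoded subunits of the respiratory chain and ATP synthase, taken from the table by the start of their symbol (Ndufa, Ndufb, Ndufc, Ndufs, Ndufv, Uqcr, Cox4 to Cox8 and Atp5) or as Sdha, Sdhb, Sdhc or Sdhd. The rule found 89 of the 19863 genes named by a single symbol in the platform annotation. Of these, 82 encode structural subunits: 34 of complex I, 4 of complex II, 8 of complex III, 19 of complex IV and 17 of ATP synthase. The other 7, Ndufaf1 to Ndufaf7, came in through the prefix Ndufa, but their products help to build complex I and are not part of it, so they were kept apart. Ndufa4 and its paralogue Ndufa4l2 carry a complex I name and were placed in complex IV, where the Ndufa4 protein is now known to sit.

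There were 2 samples: macrophages labelled beta-catenin deficient (B-Cat KO in the source name), and control macrophages, each on 1 Affymetrix 1.0 ST array, which probes transcripts along their whole length. Both came from marrow labelled with an age of 8 weeks and were fed with L929 conditioned medium (L929 is a mouse fibroblast line that releases macrophage colony-stimulating factor). The labels give no strain, no deleted part of the gene, no Cre driver, no genotype of the control and no number of animals behind a culture. The values are log2 levels from RMA, which corrects background, normalizes the arrays of a run to each other and summarises the probes of a transcript. The deposited columns carry different numbers of decimals and have medians of 7.24 in the array labelled deficient and 7.31 in control, and whether both came from the same run is not stated, so a shift between runs cannot be told apart from the label. With 1 array per group there is no replicate error and no test: a difference is always the array labelled beta-catenin deficient minus the control array, and it describes these 2 arrays only.

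Oxidative phosphorylation is the route by which mitochondria turn electrons from nutrients into ATP. Complex I (NADH dehydrogenase) and complex II (succinate dehydrogenase) pass electrons to ubiquinone, complex III passes them on to cytochrome c, and complex IV (cytochrome c oxidase) hands them to oxygen. Complexes I, III and IV pump protons as they do so, and ATP synthase lets the protons flow back to drive the making of ATP. In macrophages the balance between this route and glycolysis is known to shift with activation, and complex II sits at the crossing of the respiratory chain and the citric acid cycle.

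Ctnnb1, the gene of beta-catenin, had a level of 11.44 in the array labelled deficient and 11.29 in the control array, a difference of 0.15. The targeted gene was therefore not lower by this measure, probes outside a deleted part check nothing, and each direction below rests on the label. Macrophage markers were bright in both arrays: the 11 measured had a median level of 11.82 in the array labelled deficient and 11.86 in control, with a median difference of 0.11. Of these, 8 of 11 were above 0, and 2 (C1qb and Fcgr1, each at 0.78) were at least 1.5-fold higher. Markers of other cells moved with the label. Of 12 fibroblast and stromal markers, 10 lay past the brightness floor used below, and 10 of those 10 were over 1.5-fold higher, with a median level of 10.38 in the array labelled deficient against 8.54 in control. Of 12 neutrophil and granule markers, 11 were at least 1.5-fold higher (median level 9.98 against 8.48 in control). Of 11 proliferation genes, 5 were over 1.5-fold lower (median level 9.85 against 10.58). Of all genes past the floor, 7.03% were at least 1.5-fold higher and 8.36% lower. The part of these markers in the differences below was not tested, and fewer cells of a type cannot be told apart from less RNA per cell.

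Most subunit genes were nearly level between the arrays. Genes were counted where the mean of both levels was no lower than 7.28, the table-wide median and here called the floor, which left 76 of the 82 subunit genes and 10175 genes in all. Among these, 6 of 76 subunit genes were at least 1.5-fold lower (0.58 on the log2 scale) in the array labelled deficient, a share of 7.89% beside 8.36% of all genes, so the subunits were called lower about as often as any gene. At least 1.5-fold higher were 2 of 76, or 2.63%, beside 7.03% of all genes. The other 68 lay within 1.5-fold. After centring of the columns or subtraction of a loess curve on level the split of the subunits was 3 higher and 5 lower. The split of all genes turned with these steps, to 8.67% higher and 6.25% lower after centring and to 8.99% higher and 5.86% lower after loess.

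The lower ones were Ndufa5 and Ndufb11 of complex I, Uqcr11 and Uqcrq of complex III, Cox4i1 of complex IV and Atp5l of ATP synthase, and the higher ones were Ndufs4 of complex I and Sdha of complex II. The middle of the subunit distribution was slightly below that of all genes. The median difference was -0.18 over the 76 subunit genes and -0.08 over all 10175 genes. Differences below 0 were found for 51 of 76 subunit genes, or 67.1%, beside 58.9% of all genes. As deposited, a smaller fold gave a wider gap on the lower side. Lower by at least 0.32 on the log2 scale were 24 of 76, or 31.6% beside 24.1% of all genes. Higher by as much were 8, or 10.5% beside 15.5%. Some of the 24 lay within this smaller threshold after centring or loess, as given by complex below. The share of all genes was not counted after those steps, so whether the gap holds was not tested.

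**Figure D1:**
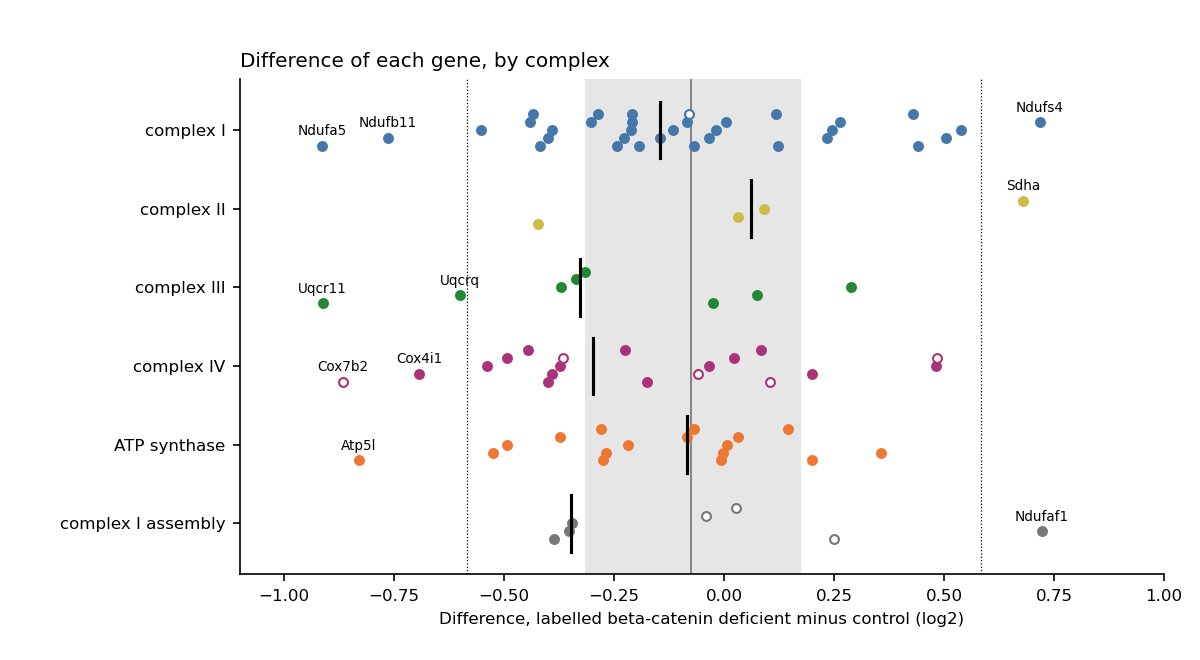
Difference of each gene in log2 units (horizontal axis, array labelled beta-catenin deficient minus control array), by complex. Each point is 1 gene, open points are genes below the brightness floor, black bars are the medians of the filled points, the grey band and line are the quartiles and median of all genes above the floor, and dotted lines mark 1.5-fold. The median bars lie between -0.35 for the complex I assembly factors and 0.06 for complex II, and most points lie within 1.5-fold.

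The complexes differed little in their medians. Complex II had a median difference of 0.06 (4 genes), ATP synthase -0.08 (17 genes), complex I -0.15 (33 genes), complex IV -0.30 (14 genes) and complex III -0.33 (8 genes). The spread inside each complex was wider than the distance between these medians: complex I ran from -0.91 to 0.72, complex II from -0.42 to 0.68, complex III from -0.91 to 0.29, complex IV from -0.69 to 0.48 and ATP synthase from -0.83 to 0.36. The 5 ranges overlap. As deposited, 4 of 8 in complex III and 7 of 14 in complex IV were past that smaller threshold on the lower side. So were 8 of 33 in complex I and 4 of 17 in ATP synthase, beside 24.1% of all genes. These counts depend on the scaling. After centring, Uqcr10 (-0.298) and Uqcrh (-0.264) of complex III and Cox7b (-0.317) and Cox6b1 (-0.300) of complex IV lay within it. So did Ndufs1 (-0.318) of complex I and Atp5o (-0.300) of ATP synthase. Uqcr10 (-0.280), Uqcrh (-0.281), Ndufs1 (-0.300) and Atp5o (-0.287) did so after loess as well. Ndufs5 (-0.315) of complex I and Cox7a2 (-0.319) of complex IV lay within it after loess but not after centring. The share of all genes past this threshold after these steps was not counted. The 7 of complex IV include the dim muscle forms Cox6a2 and Cox7a1. Subunits of a complex are not independent measurements of these cultures, so the counts describe the 2 arrays.

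Promoters of some of the genes past 1.5-fold, and of a level gene, are given below. Ndufb11 (-0.76) is also past 1.5-fold and has a window, not shown. The promoters are given because many respiratory genes are known to be driven by a small set of factors. Among these are nuclear respiratory factor NRF1, the ETS factor GABP (also called NRF2, not the antioxidant factor of that name) and YY1. RefSeq windows of 300 bases (250 before to 50 after the annotated start, build GRCm38.p6) were found for 73 of the 89 genes. Capitals mark exact matches, on either strand, to GCGCATG (the letters searched for NRF1, of which a palindromic site holds 2 overlapping copies), CCGGAAG (for ETS factors) or GATGGCG (for YY1). Each is a part of a longer known site. All 7 genes lie on the minus strand, and the windows are written in the direction of transcription: Ndufs4 at chr13:114388045-114388344, Ndufaf1 at chr2:119662785-119663084, Sdha at chr13:74350191-74350490, Ndufa5 at chr6:24527477-24527776, Uqcr11 at chr10:80406772-80407071, Atp5l at chr9:44920693-44920992 and, as a gene that was level between the arrays and holds NRF1 and ETS matches, Atp5k at chr5:108434350-108434649. Ndufa5 has a further annotated start, not shown.
Ndufs4: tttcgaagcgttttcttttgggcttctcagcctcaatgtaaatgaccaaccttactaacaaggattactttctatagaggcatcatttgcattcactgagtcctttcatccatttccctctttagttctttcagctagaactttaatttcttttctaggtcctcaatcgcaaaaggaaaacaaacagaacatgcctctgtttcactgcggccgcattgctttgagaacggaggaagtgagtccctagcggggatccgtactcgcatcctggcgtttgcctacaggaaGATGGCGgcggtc
Ndufaf1: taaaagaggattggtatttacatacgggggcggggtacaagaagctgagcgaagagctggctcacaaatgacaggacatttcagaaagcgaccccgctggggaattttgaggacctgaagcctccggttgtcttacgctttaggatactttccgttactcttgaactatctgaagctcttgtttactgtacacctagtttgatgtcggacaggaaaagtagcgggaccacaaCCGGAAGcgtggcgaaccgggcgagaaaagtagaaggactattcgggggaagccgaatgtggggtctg
Sdha: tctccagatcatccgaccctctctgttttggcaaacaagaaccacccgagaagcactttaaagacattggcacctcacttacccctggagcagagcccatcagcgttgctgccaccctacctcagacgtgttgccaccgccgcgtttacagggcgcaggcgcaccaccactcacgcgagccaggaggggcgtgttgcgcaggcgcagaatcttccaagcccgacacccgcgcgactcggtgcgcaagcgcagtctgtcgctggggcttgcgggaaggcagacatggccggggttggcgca
Ndufa5: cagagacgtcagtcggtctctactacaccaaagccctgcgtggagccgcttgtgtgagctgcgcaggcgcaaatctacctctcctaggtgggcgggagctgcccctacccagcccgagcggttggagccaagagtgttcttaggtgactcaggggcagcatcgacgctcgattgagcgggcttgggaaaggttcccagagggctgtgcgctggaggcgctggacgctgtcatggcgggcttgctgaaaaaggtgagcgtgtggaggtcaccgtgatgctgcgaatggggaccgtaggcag
Uqcr11: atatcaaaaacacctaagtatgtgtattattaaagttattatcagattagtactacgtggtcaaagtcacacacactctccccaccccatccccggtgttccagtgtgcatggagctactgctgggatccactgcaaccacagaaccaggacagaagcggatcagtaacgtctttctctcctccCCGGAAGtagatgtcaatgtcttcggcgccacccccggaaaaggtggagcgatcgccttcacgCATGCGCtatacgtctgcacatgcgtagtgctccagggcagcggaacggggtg
Atp5l: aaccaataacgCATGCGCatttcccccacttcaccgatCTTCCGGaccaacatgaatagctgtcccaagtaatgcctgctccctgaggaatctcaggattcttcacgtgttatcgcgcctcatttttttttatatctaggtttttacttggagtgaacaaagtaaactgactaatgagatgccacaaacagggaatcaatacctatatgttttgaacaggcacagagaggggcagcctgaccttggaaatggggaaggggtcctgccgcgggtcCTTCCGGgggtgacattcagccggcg
Atp5k: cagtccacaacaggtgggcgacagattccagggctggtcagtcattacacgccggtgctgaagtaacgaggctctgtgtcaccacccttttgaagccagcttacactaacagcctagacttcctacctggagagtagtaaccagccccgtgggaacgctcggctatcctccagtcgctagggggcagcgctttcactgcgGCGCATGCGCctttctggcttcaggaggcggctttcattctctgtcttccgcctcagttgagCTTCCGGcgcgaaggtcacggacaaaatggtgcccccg

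Of the genes at least 1.5-fold higher, Ndufs4 held a YY1 match that begins 37 bases after the start, Ndufaf1 held 1 ETS match, and Sdha held no match. Of those at least 1.5-fold lower, Uqcr11 held 1 NRF1 and 1 ETS match and Atp5l held 1 NRF1 match and 2 ETS matches, while Ndufa5 and Ndufb11 held none. Windows of Uqcrq and Cox4i1 were not analysed here. Genes with a match were thus found on both sides. Over the 67 subunit genes with a window, those below the floor included, 19.4% held the NRF1 letters. This stands beside 8.22% of the genes above the floor and 4.41% of all genes with a window. The ETS letters were in 25.4% of subunit windows, beside 21% and 9.93%, and the YY1 letters in 14.9%, beside 7.84% and 4.04%. Among subunit genes above the floor, the median difference was -0.15 over the 31 with any of the 3 matches and -0.15 over the 32 without a match. By motif, it was -0.03 over the 13 with an NRF1 match and -0.19 over the 50 without one, and the ranges overlapped (-0.91 to 0.50 with and -0.91 to 0.72 without). It was -0.15 over the 17 with an ETS match and -0.15 over the 46 without. It was -0.08 over the 9 with a YY1 match, which ran from -0.55 to 0.72, and -0.16 over the 54 without, which ran from -0.91 to 0.68. A match is a description of these letters and not a bound site.

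**Figure D2:**
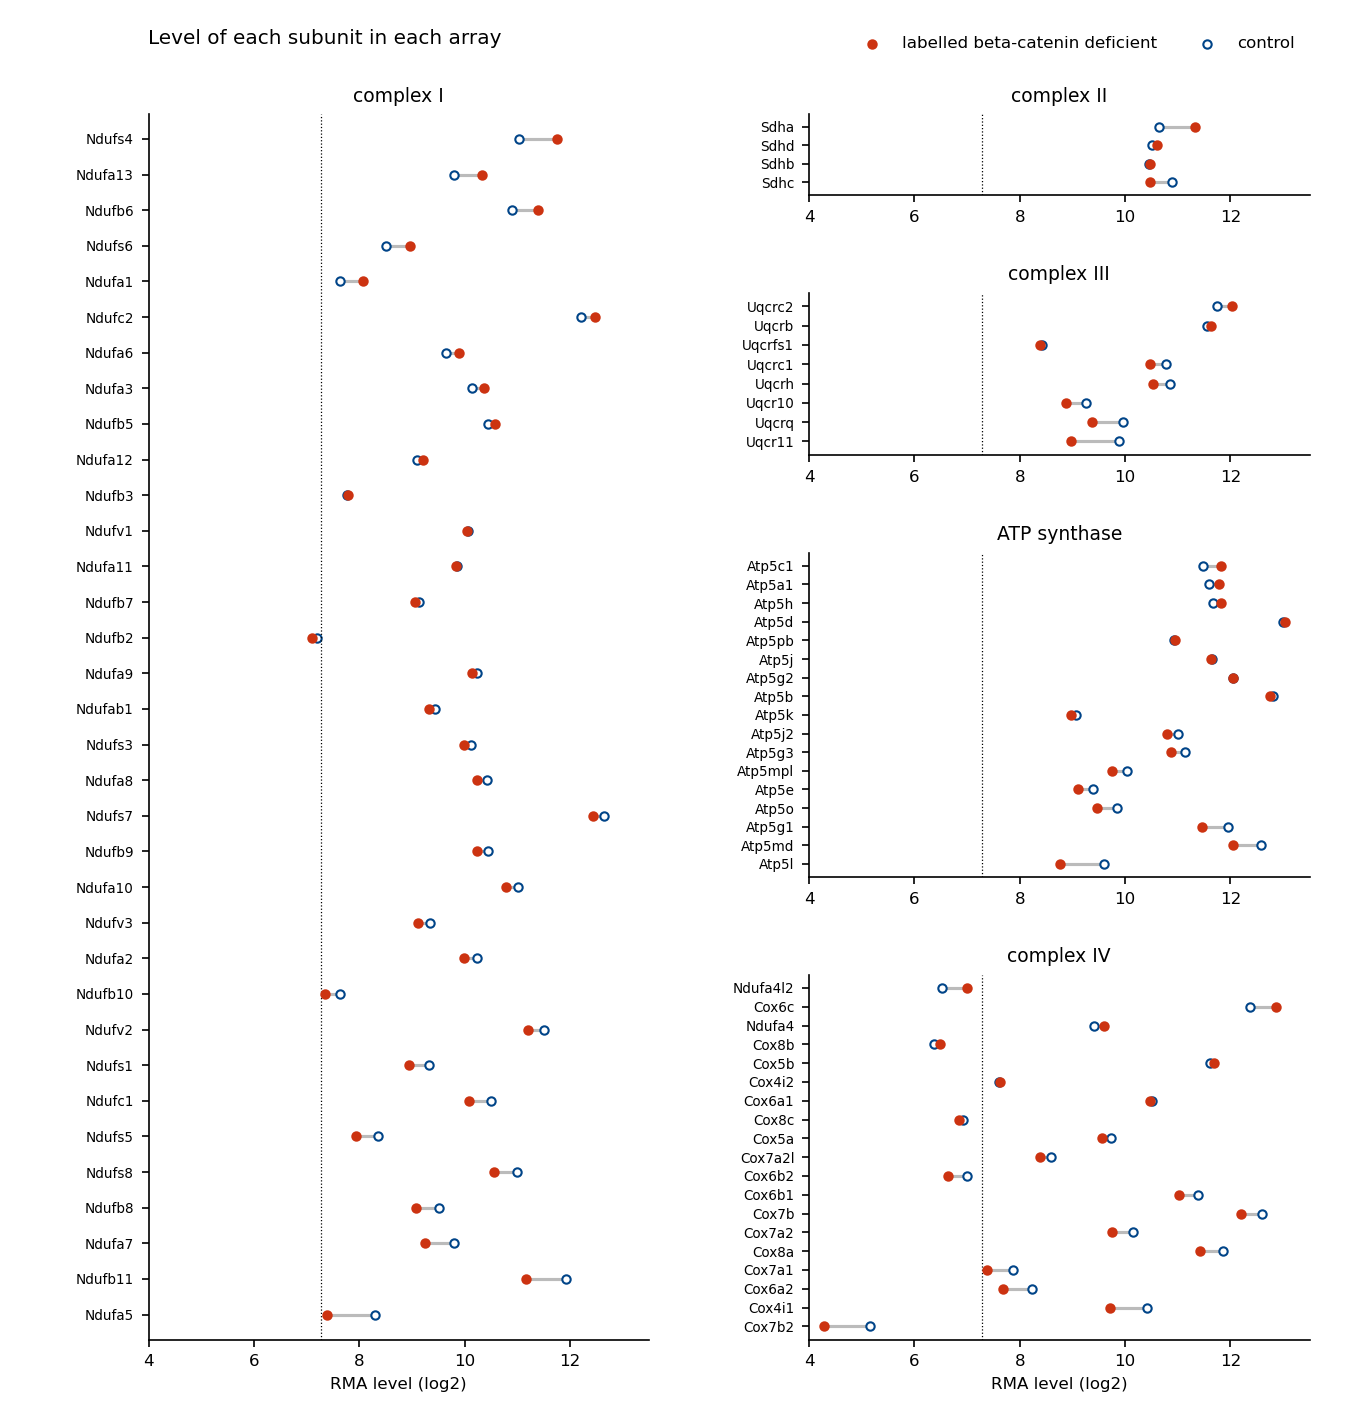
RMA level (log2, horizontal axis) of each of the 82 subunit genes in the array labelled beta-catenin deficient (filled) and the control array (open), by complex and ordered by the difference, with the brightness floor of 7.28 dotted. Most pairs of points nearly touch, and the widest gaps are those of Ndufa5 and Uqcr11 on the lower side and Ndufs4 and Sdha on the higher side.

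Complex I went both ways inside its NADH-binding module, the tip of the arm that reaches into the matrix and takes electrons from NADH. Ndufs4, an accessory subunit that joins late and whose loss in mice gives a Leigh-like encephalopathy, had a level of 11.75 in the array labelled deficient and 11.03 in control, a difference of 0.72 or 1.64-fold. Ndufs6, a zinc-binding accessory subunit of the same module, had 8.96 and 8.52, a difference of 0.44. These were the highest of the module's 9 genes. The 3 core subunits that carry the flavin and iron-sulfur clusters there were not higher: Ndufv1, which binds NADH, differed by -0.02, Ndufv2 by -0.30 and Ndufs1 by -0.39. Ndufa7 was the lowest, with 9.25 in the array labelled deficient and 9.80 in control, a difference of -0.55. The remaining members were Ndufa2 (-0.24), Ndufv3 (-0.23) and Ndufa12 (0.12), and the module's median was -0.23.

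The quinone-binding module, where electrons leave for ubiquinone, was below 0 in 4 of the 4 genes analysed, beside 58.9% of all genes. Ndufa5, an accessory subunit, had 7.38 in the array labelled deficient and 8.29 in control, a difference of -0.91 or 1.88-fold, the lowest value in complex I. Its level in the array labelled deficient lay just above the floor. The core iron-sulfur subunit Ndufs8 differed by -0.44, Ndufs7 had 12.44 and 12.65 (-0.21) and Ndufs3 had 9.98 and 10.13 (-0.15). The median was -0.32. Ndufa6 (0.25) and Ndufa9 (-0.08) lie where the arms of the complex join and are counted apart. Over the 6 core subunits of both modules the differences ran from -0.44 to -0.02 with a median of -0.26, and over 27 accessory subunits from -0.91 to 0.72 with a median of -0.08.

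The membrane arm holds the proton pumps, whose central subunits are encoded in mitochondrial DNA and are surrounded by the accessory subunits given here. In its proximal part, next to the matrix arm, 9 genes had a median of -0.03. Ndufa13, also known as GRIM-19 for a role in cell death, had 10.33 in the array labelled deficient and 9.79 in control, a difference of 0.54. This difference passed 1.5-fold (0.585) after centring (0.612) and loess (0.616) but not after quantile normalization (0.578). Ndufa1 had 8.07 and 7.64 (0.43). Ndufc2 (0.26) and Ndufa3 (0.23) were the next highest. On the lower side were Ndufs5 (-0.42), Ndufc1 (-0.40), Ndufa10 (-0.21) and Ndufa8 (-0.19), and Ndufa11 differed by -0.03.

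In the distal part, 9 of 10 genes were above the floor and the median was -0.12. Ndufb11 had 11.17 in the array labelled deficient and 11.93 in control, a difference of -0.76 or 1.70-fold, and Ndufb8 had 9.07 and 9.52 (-0.44). Ndufb6 stood on the other side, with 11.40 and 10.90 (0.50). Between them were Ndufb10 (-0.29), Ndufb9 (-0.21), the acyl carrier protein Ndufab1 (-0.12), Ndufb7 (-0.07), Ndufb3 (0.00) and Ndufb5 (0.12). Ndufb2, at 7.11 and 7.19, was below the floor in both arrays.

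Among the assembly factors that the prefix took in, Ndufaf1, which helps to build the membrane arm, was higher. It had 10.08 in the array labelled deficient and 9.36 in control, a difference of 0.72 or 1.65-fold. Ndufaf2, which is needed late in assembly, had 7.38 and 7.77 (-0.39), Ndufaf4 had 7.47 and 7.82 (-0.35) and Ndufaf3 had 9.27 and 9.62 (-0.34). Ndufaf5 (6.86 and 6.61), Ndufaf6 (6.92 and 6.89) and Ndufaf7 (7.24 and 7.28) had means below the floor. Of 34 other assembly factors of the respiratory complexes and ATP synthase above the floor, 2 lay at least 1.5-fold lower and 1 higher, with a median of -0.13. Their shares of 5.88% and 2.94% stand beside 8.36% and 7.03% of all genes. The lowest were Cmc2 (-0.85) and Coa4 (-0.61), both small twin-cysteine proteins tied to complex IV, and the highest were Tmem126b (0.59), which works beside Ndufaf1 in building complex I, and Surf1 (0.48), a complex IV assembly factor.

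Complex II, the only complex here with no subunit from mitochondrial DNA, split by subunit. Sdha, the flavoprotein that oxidises succinate, had 11.33 in the array labelled deficient and 10.65 in control, a difference of 0.68 or 1.60-fold. Sdhb, the iron-sulfur subunit, had 10.48 and 10.44 (0.03). The membrane anchors were Sdhd, with 10.61 and 10.52 (0.09), and Sdhc, with 10.47 and 10.89 (-0.42). The genes of this 4-subunit enzyme thus spanned 0.68 to -0.42, and its median of 0.06 does not describe them as a group.

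In complex III the lowest values were those of small subunits, 2 of them past 1.5-fold. Uqcr11 had 8.97 in the array labelled deficient and 9.88 in control, a difference of -0.91 or 1.88-fold. Uqcrq, a small subunit bound to cytochrome b, had 9.37 and 9.97, a difference of -0.60 that was within 1.5-fold after centring (-0.53), quantile normalization (-0.55) and loess (-0.51). Uqcr10 had 8.88 and 9.25 (-0.37), and the hinge protein Uqcrh, which lies near the site where cytochrome c docks, had 10.52 and 10.86 (-0.34). Uqcrb was the exception among the 5, with 11.64 and 11.56 (0.08). The large core proteins went apart, Uqcrc2 at 12.03 and 11.74 (0.29) and Uqcrc1 at 10.46 and 10.78 (-0.32). Uqcrfs1, the Rieske iron-sulfur protein and a redox centre of the complex, had 8.39 and 8.42 (-0.02).

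In complex IV the catalytic subunits are encoded in mitochondrial DNA, and the nuclear genes below make the subunits that surround and regulate them. Cox4i1, the common form of the regulatory subunit 4, had 9.72 in the array labelled deficient and 10.41 in control, a difference of -0.69 or 1.62-fold. Cox8a (-0.45), Cox7a2 (-0.40), Cox7b (-0.39) and Cox6b1 (-0.37) were lower by over 0.32. Cox6c was on the other side, with 12.86 and 12.38 (0.48). Close to level were Cox6a1 (-0.03) and Cox5b (0.08), and between lay Cox7a2l, a factor that ties complexes III and IV into supercomplexes (-0.22), Cox5a (-0.18) and Ndufa4 (0.20). The 11 common subunits, with Cox7a2l counted among them, had a median of -0.22.

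Tissue-restricted forms of complex IV subunits were mostly dim. Below the floor were the testis forms Cox7b2 (4.28 in the array labelled deficient and 5.15 in control), Cox6b2 (a difference of -0.36) and Cox8c (6.85 and 6.91), the striated muscle form Cox8b (6.48 and 6.38) and the hypoxia-inducible Ndufa4l2 (a difference of 0.48). The muscle forms Cox6a2 (7.69 and 8.23) and Cox7a1 (7.37 and 7.87) and the lung form Cox4i2 (7.63 and 7.61) were just above it. In the same arrays 8 of 10 striated muscle markers were below the floor. The 1.82-fold lower value of Cox7b2 was in the dim range, where genes as a whole sat lower in the array labelled deficient (median -0.44 over 1365 genes with a mean from 4 to 5), and it shrank to -0.44 after loess. With no restricted form counted, the complex IV median was -0.22 in place of -0.30.

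In ATP synthase the catalytic head had a median near 0 and the accessory membrane subunits had one below it. In the F1 head, which makes ATP, the alpha and beta subunits differed by 0.20 (Atp5a1, 11.79 in the array labelled deficient and 11.59 in control) and -0.07 (Atp5b, 12.74 and 12.81). The gamma subunit of the rotor, Atp5c1, had 11.83 and 11.47 (0.36), the delta subunit Atp5d differed by 0.03 and the epsilon subunit Atp5e had 9.11 and 9.39 (-0.28). The head's median was 0.03. The peripheral stalk, which holds the head still, had a median of 0.00, from 0.15 for Atp5h through Atp5pb (0.01) and Atp5j (-0.00) to -0.37 for Atp5o.

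The lowest value of the complex was in the membrane part. Atp5l, the gene of subunit g, had 8.77 in the array labelled deficient and 9.60 in control, a difference of -0.83 or 1.78-fold. Atp5md, the gene of the small subunit DAPIT, had 12.06 and 12.58 (-0.53). With Atp5mpl (-0.27), Atp5j2 (-0.22) and Atp5k (-0.08) the accessory membrane subunits were below 0 in 5 of 5, though Atp5k was at 0.01 after loess. Their median was -0.27. Of all genes above the floor, 58.9% were below 0, and the median was -0.08. The c ring, which the protons turn, is made from 3 genes for the same mature protein. Of these Atp5g1 had 11.45 and 11.94 (-0.49), Atp5g3 had 10.87 and 11.14 (-0.27) and Atp5g2 had 12.05 in both arrays (-0.01).

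Several of these genes were read by more than 1 row of the table, and their rows did not always say the same. Processed copies of respiratory genes are common in mammalian genomes, so rows of 1 gene may share signal and are not replicates. Of 17 genes with several rows, 3 had rows of opposite sign and 2 had rows on both sides of 1.5-fold. The 6 rows of Atp5l ran from -0.83 to -0.59, each past 1.5-fold, and both rows of Ndufb11 did so as well (-0.76 and -0.59). Uqcr11 had -0.91 in its brightest row and -0.55 in the other. Cox7b was not called by its brightest row (-0.39), but its other row was at -0.99, with 10.76 in the array labelled deficient and 11.75 in control. Atp5h ran from -0.36 to 0.15, Ndufab1 from -0.12 to 0.20 and Ndufa11 from -0.03 to 0.06. Another 6 rows name a subunit together with a further symbol and were not used.

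**Figure D3:**
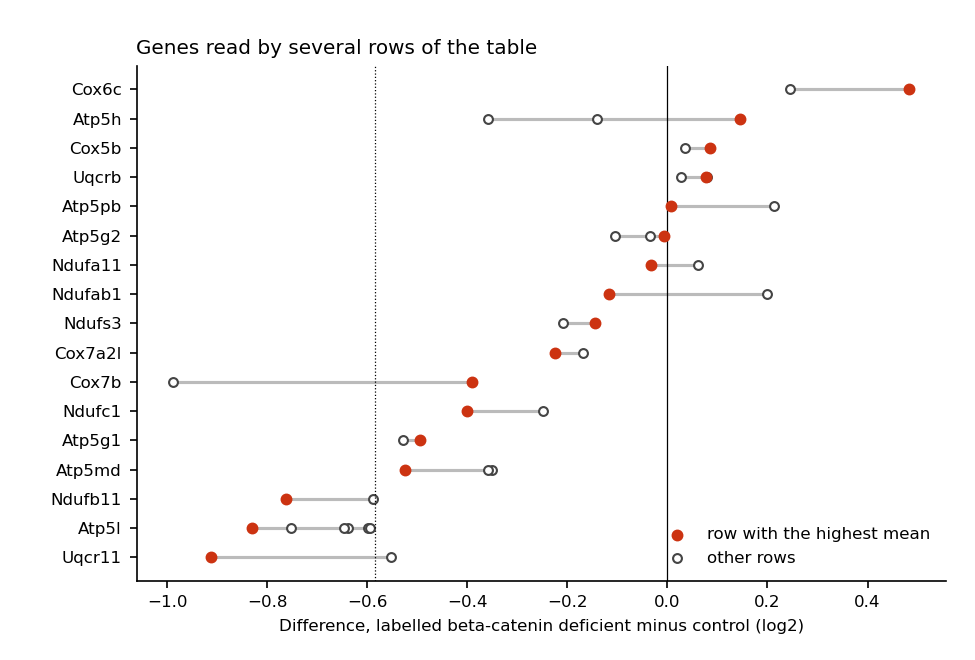
Difference in log2 units (horizontal axis, array labelled beta-catenin deficient minus control array) of every row of the 17 genes that the table reads by several rows. Filled points are the rows with the highest mean, used in the text, open points are the other rows, and the dotted line marks 1.5-fold lower. The rows of Atp5l and Ndufb11 lie past the line, and those of Cox7b and Uqcr11 lie on both sides of it.

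The difference of all genes depended on level, so the subunits were also set beside genes of like brightness. From a mean level of 9 to 10, the 20 subunit genes had a median of -0.28 and the 2683 genes in all -0.09, with 3 of these subunits at least 1.5-fold lower, beside 8.80% of all genes in that range. From 10 to 11 the medians were -0.17 for 22 subunits and -0.07 for 1535 genes. From 11 to 12 the order turned, with 0.08 for 15 subunits and -0.00 for 659 genes, and from 12 to 13 it was -0.07 for 7 subunits and 0.00 for 236 genes.

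**Figure D4:**
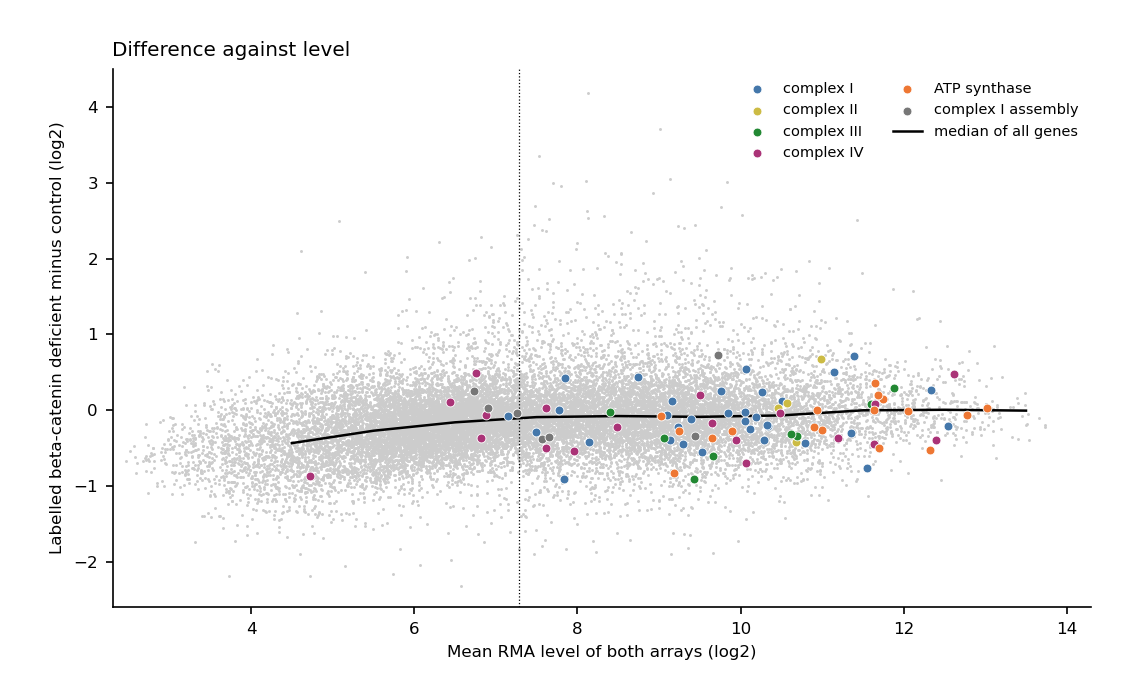
Difference in log2 units (vertical axis, array labelled beta-catenin deficient minus control array) against the mean log2 level of both arrays (horizontal axis) for all 19863 genes in grey, with the 89 oxidative phosphorylation genes in colour by complex. The black line is the median of all genes in steps of 1 in level, and the dotted line is the brightness floor of 7.28. The coloured points lie inside the grey cloud and mostly to the right of the floor.

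Further lists tied to mitochondria, mitochondrial DNA left out, had medians from -0.13 (other assembly factors) to 0.03 (citric acid cycle). The subunits had -0.18 and all genes -0.08. Of 20 electron carriers and their enzymes, 4 lay at least 1.5-fold lower and 2 lay higher, with a median of -0.04. These are 20% and 10%, beside 8.36% and 7.03% of all genes. The lowest were Sqor, which passes electrons from sulfide to ubiquinone (10.08 in the array labelled deficient and 10.96 in control, -0.88), and the ubiquinone synthesis gene Coq7 (-0.67). The highest were Etfa, a subunit of the flavoprotein that carries electrons from fatty acid oxidation (9.93 and 9.05, 0.88), and Coq3 (0.80). Cytochrome c, Cycs, differed by 0.19 and the complex III subunit Cyc1, which the prefixes leave out, by -0.45 (both named after their values had been seen). Of the 13 protein genes of mitochondrial DNA, 2 had named rows: COX2 had 12.79 and 13.12 (-0.33) and ND3 had 12.24 and 12.44 (-0.20).

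Of 23 citric acid cycle and pyruvate dehydrogenase genes, 2 lay at least 1.5-fold lower and 1 lay higher, with a median of 0.03. The shares were 8.70% and 4.35%, beside 8.36% and 7.03% of all genes. Pdk4, a kinase that shuts down pyruvate dehydrogenase, had 9.71 in the array labelled deficient and 8.45 in control, a difference of 1.27. Idh3a (0.54) was next, and Idh2 (-0.64) and Pdhx (-0.62) were lowest. Mitochondrial ribosome genes had a median of -0.11 over 75 genes, 7 of them at least 1.5-fold lower (9.33%, beside 8.36% of all genes) and 3 higher (4%, beside 7.03%). They ran from Mrps21 (-0.96) and Mrps24 (-0.87) to Mrpl11 (0.81) and Mrpl54 (1.02).

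Of 16 regulators of mitochondrial genes, 1 lay at least 1.5-fold lower and 1 lay higher, with a median of -0.12. Their shares were 6.25% each way, beside 8.36% and 7.03% of all genes. The lowest were 2 GABP genes, Gabpb1 with 8.53 in the array labelled deficient and 9.20 in control (-0.67) and Gabpa with 8.73 and 9.18 (-0.45), while the further GABP gene Gabpb2 had 9.22 and 9.31 (-0.09). Mterf3, a brake on mitochondrial transcription (9.26 and 8.63, 0.63), and Yy1 (10.73 and 10.23, 0.51) were highest. Nrf1 differed by -0.08 (8.48 and 8.57), and the coactivator Ppargc1a was below the floor at 5.11 and 4.92 (both named after their values had been seen).

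**Figure D5:**
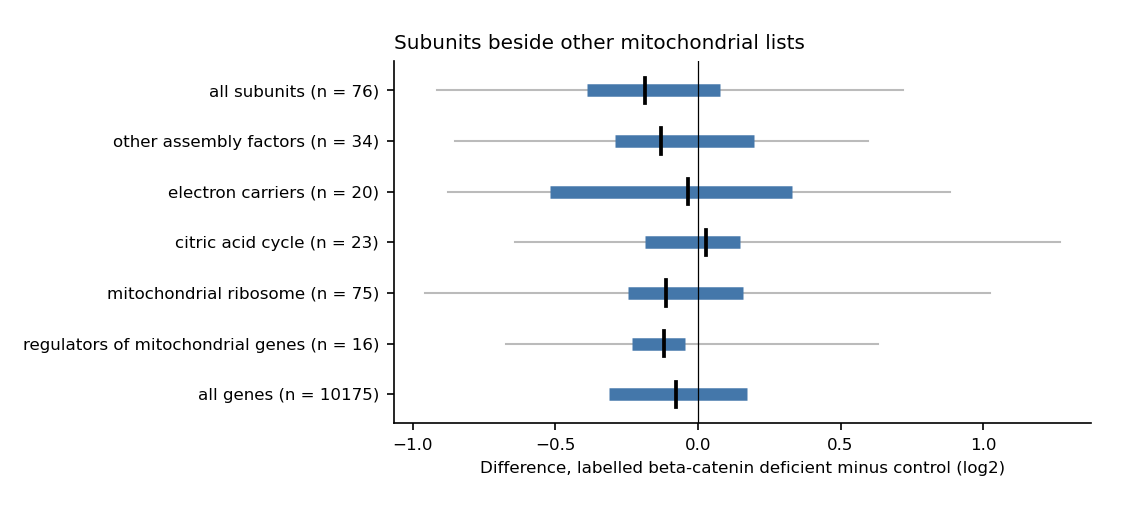
Difference in log2 units (horizontal axis, array labelled beta-catenin deficient minus control array) for the subunits, 5 other mitochondrial lists and all genes above the floor. Black bars are medians, blue bars run from the lower to the upper quartile, thin lines span the lowest to the highest gene (not drawn for all genes), and n is the number of genes. The medians lie between -0.18 for the subunits and 0.03 for the citric acid cycle list, and the quartile bars overlap.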

How the data were processed

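Total RNA of 2 macrophage cultures was hybridised to 1 array each. The deposited table holds 1 log2 value per row and sample, and the submitters' processing notes name RMA. Its version and settings, and whether both columns came from a single run, are not stated in the sources used here, and the columns carry different numbers of decimals. The log2 scale was read from the range of the values, 2.12 to 14.11. Array values carry no read depth, and the number of arrays limits the precision.

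Row names came from the platform annotation in GEO. Of 25917 rows, 21624 had 1 symbol, 1568 several and 2725 none. The members had 114 rows, the row with the highest mean was kept for each of 89 genes, and 89 of 89 Entrez IDs were found in the RefSeq table of GRCm38.p6, with 0 symbols changed. Differences were computed from the values as deposited, and genes were counted at 1.5-fold, or at 0.32 on the log2 scale as a second threshold, where the mean of both columns was at or above the median of all values. With 1 array per group no test was run.

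Complexes and modules were assigned from general knowledge. Named genes were the core subunits, the 3 highest and 3 lowest of each complex, genes past 1.5-fold, restricted isoforms with their counterparts, dim members, members with several rows, and the 2 highest and 2 lowest of each further list. The report goes on to name the remaining members. Members and lists were chosen with earlier results of these data known. Alternatives were the floor, centring, quantile normalization, loess (span 0.3), the mean of rows, the mean in place of the median and the members counted. Promoter motif letters were shortened after longer forms had been searched. The steps were tested on simulated data. Python 3.11.15, pandas 2.3.3 and statsmodels 0.14.6 were used.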

Additional observations from a re-analysis of the deposited data

How the results depend on the processing

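No median difference of a complex turned in sign or moved by more than 0.1 under the alternatives run: no floor at all, a higher floor (the 75th percentile of all values, 9.07), centring, quantile normalization, loess, the mean of a gene's rows, means in place of medians, no tissue-restricted isoforms and, chosen after seeing the data, Ndufa4 counted in complex I and genes with 1 row only. The subunit median ran from -0.19 to -0.11, that of complex I from -0.18 to -0.07, complex II from 0.06 to 0.13, complex III from -0.34 to -0.25, complex IV from -0.39 to -0.21 and ATP synthase from -0.16 to -0.01. With a threshold of 0.32 (log2) in place of 1.5-fold, 24 subunits were lower and 8 higher in the values as deposited. This threshold was not counted under the other alternatives. At 1.5-fold, 5 to 7 were lower and 2 to 3 higher under those alternatives. The shares of all genes at 1.5-fold ran from 5.86% to 13.04% lower and from 4.98% to 8.99% higher. Centring, quantile normalization or loess turned the sign of 9 of the 76 subunits, each with a difference of at most 0.084, ended the call of 1 (Uqcrq) and added 1 (Ndufa13). The median of all genes above the floor was -0.08 as deposited and 0.01 after loess. No paired analysis was possible because each group holds 1 array and no result comes from a test.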
